A study of Mus musculus with 2 samples.

Results

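The constitutive proteasome gene set was taken as every gene whose symbol is Psma, Psmb, Psmc, Psmd, Psme, Psmf or Psmg followed by a number, apart from Psmb8, Psmb9 and Psmb10, which encode the inducible subunits of the immunoproteasome. The rule used the symbols only and no measured value, and it found 45 of the 24411 genes quantified. The genes were read in RNA-seq of dorsal root ganglion (DRG) sensory neuron preparations from male C57BL/6J mice of 6 to 8 weeks, labelled C57BL/6 in the sample records, with no transgene or deletion named for either group. Each group was 10 mice whose DRG cells, from thoracic and lumbar ganglia, were pooled into 1 library after B lymphocytes had been removed with beads. The alum-injected mice received 50% alum, an adjuvant, intraperitoneally on days 0 and 14, and the alum + KLH mice received the same adjuvant mixed with KLH (100 µg), the respiratory protein of the keyhole limpet and a foreign antigen to mice. DRGs were collected on day 28 in both. The control pool is labelled both as naïve and as alum alone, and it is called the alum pool here.

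The proteasome is the main protease of the cytosol and nucleus for proteins tagged with ubiquitin. Its barrel, the 20S core, stacks rings of alpha subunits around rings of beta subunits, and 3 of the beta subunits cut peptide bonds. The 19S regulatory particle caps the barrel, recognizes ubiquitin, removes it and drives the unfolded protein inside with a ring of ATPases. Neurons depend on this system to clear damaged proteins and to remodel synapses and axons, and each core subunit occupies a fixed number of places in the assembled particle.

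Values are TPM, read numbers corrected for transcript length on a scale where each library totals 1000000, which lets levels of different genes be set side by side within a pool. A gene was counted as detected above 3 TPM, and differences are log2 ratios of alum + KLH over alum after adding 1 TPM, a scale that understates the change of low genes. Each group being 1 library, variation between mice was not measured and the immunization was not tested. As a measure of scatter, ratios were compared with the SD of this quantity over the 500 genes of closest abundance, called the neighbour SD. This SD describes genes within these libraries and does not replace replicates. In bulk RNA, fewer cells of a type and less RNA per cell cannot be told apart.

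Sequences of 4 members are shown because they span the range of levels described later and differ visibly in base composition. Psmc6 and Psmd3 had the highest and the lowest transcript level of the 31 subunits of the 20S core and 19S particle, and Psmb7 and Psmb5 encode catalytic beta subunits that were far apart in level. Each window is the middle 120 coding bases, or 40 codons, of the RefSeq transcript, 5′ to 3′, from GENCODE M21 on GRCm38 (the assembly also called mm10). Capitals mark a G or C in the last position of a codon.
Psmc6: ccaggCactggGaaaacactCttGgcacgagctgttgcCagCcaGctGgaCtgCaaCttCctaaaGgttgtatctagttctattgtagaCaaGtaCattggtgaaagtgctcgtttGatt
Psmd3: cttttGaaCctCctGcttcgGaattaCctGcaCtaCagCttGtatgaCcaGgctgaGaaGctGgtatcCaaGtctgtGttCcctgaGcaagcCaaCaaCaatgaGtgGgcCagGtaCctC
Psmb7: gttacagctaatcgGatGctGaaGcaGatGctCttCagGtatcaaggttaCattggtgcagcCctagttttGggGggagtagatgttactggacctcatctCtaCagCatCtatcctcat
Psmb5: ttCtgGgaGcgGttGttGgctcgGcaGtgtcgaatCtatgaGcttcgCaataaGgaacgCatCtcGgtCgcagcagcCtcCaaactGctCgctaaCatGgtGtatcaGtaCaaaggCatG
In these windows 17 of 40 codons ended in G or C in Psmc6 and in Psmb7, against 30 in Psmd3 and 27 in Psmb5. Over the whole coding sequence the share was 35.9% in Psmc6, 48.9% in Psmb7, 66.0% in Psmb5 and 72.5% in Psmd3. The genes lie on different chromosomes or far apart: Psmc6 at chr14:45329823-45349074, Psmd3 at chr11:98682554-98695978, Psmb7 at chr2:38588046-38643952 and Psmb5 at chr14:54614120-54617995.

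Nearly the whole set was expressed. Of the 45 genes, 42 were above 3 TPM in both pools (93.3%), where 45.5% of all genes passed. Of the 45, 25 were above 100 TPM in both pools (55.6%), against 8.61% of all genes. The 45 genes summed to 8579.8 TPM in the alum pool and 8428.1 TPM in the alum + KLH pool, or 0.858% and 0.843% of all transcripts. The median of the 42 detected members was 137.8 and 133.2 TPM, while the median of the 11648 genes above 3 TPM in at least 1 pool was 24.4 and 23.9 TPM. The highest member, Psmc6, ranked 210 and 229 among all genes.

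The preparations carried the transcripts of sensory neurons. All 12 neuronal markers were detected in both pools, from 60.8 to 5259 TPM (alum) and 44.6 to 5048 TPM (alum + KLH). The satellite glia markers were all detected too (6 of 6), with 5 of 10 Schwann cell, 3 of 5 fibroblast and 1 of 5 endothelial markers, so the proteasome values are those of a mixture of cells. No macrophage marker (0 of 7) and no B lymphocyte marker (0 of 6) passed 3 TPM in either pool, and 3 of the B lymphocyte markers were listed at 0 in both. The 12 neuronal markers summed to 15640 and 15440 TPM and the 6 satellite glia markers to 1519 and 1403 TPM. What part each cell type has in the member values was not tested.

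**Figure D1:**
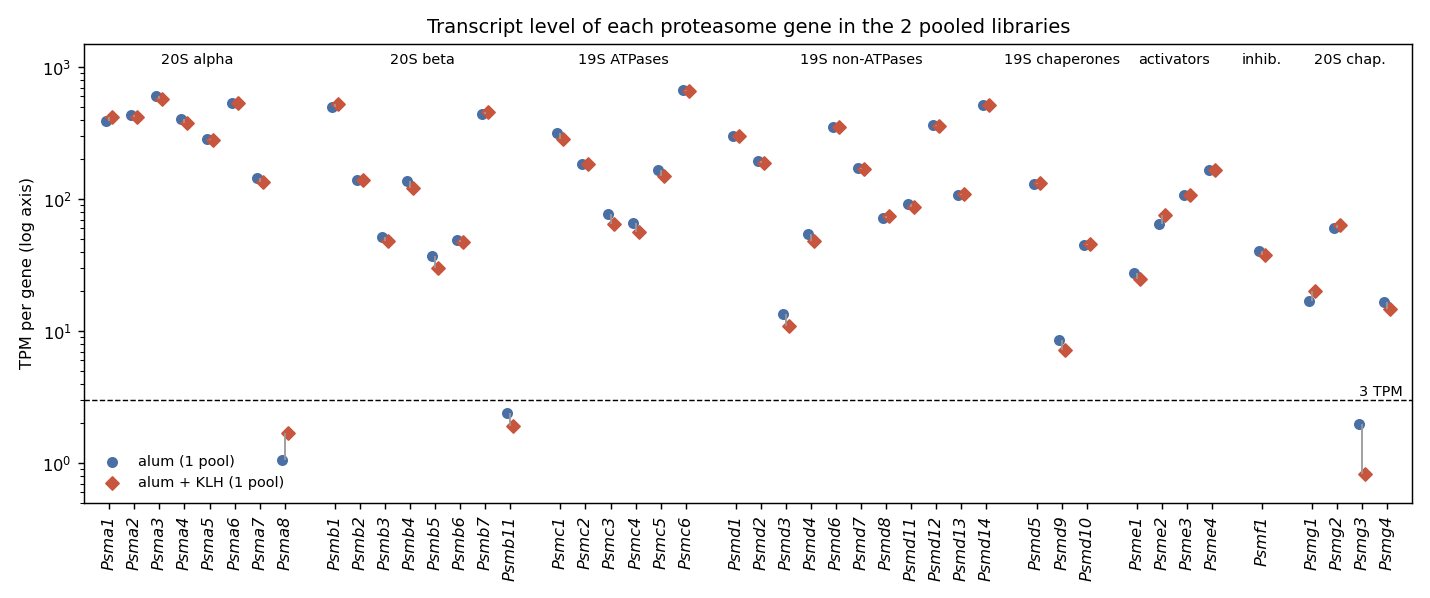
TPM of each of the 45 proteasome genes (log axis) in the alum pool (blue circles) and the alum + KLH pool (red diamonds), 1 library each, grouped by role; the dashed line is 3 TPM. For the 42 detected genes the points of a pair lie close together, while genes of one ring differ by up to 13.7-fold (beta, alum) and the 3 lowest genes, Psma8, Psmb11 and Psmg3, lie under the line in both pools.

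The alpha subunits, which form the outer rings and the gate of the barrel, were more even than the beta subunits and the subunits of the 19S particle. All 7 were above 100 TPM, between Psma7 (143.7 and 134.1 TPM) and Psma3 (609.9 and 571.6 TPM). Their medians were 405.3 and 420.2 TPM, and the highest stood 4.24 and 4.26 times above the lowest. Psma8, which replaces an alpha subunit in the testis, was at 1.05 and 1.71 TPM, under the threshold in both pools.

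The beta subunits, which form the inner rings, were spread more widely. Psmb1 (503.2 and 522.6 TPM) and Psmb7 (443.4 and 459.2 TPM) were at the level of the alpha subunits. Psmb2 (139.5 and 138.8 TPM) and Psmb4 (136.2 and 122.3 TPM) were lower, and neither encodes an active site. Psmb3, Psmb6 and Psmb5 were lowest, at 52.1 and 47.8 TPM, 49.4 and 47.6 TPM, and 36.9 and 29.97 TPM. The SD of log2 TPM over the subunits was 1.52 and 1.62 in the beta group against 0.70 and 0.71 in the alpha group.

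The catalytic subunits did not share a level. Psmb7, the trypsin-like subunit, was 12 and 15.3 times as high as Psmb5, the chymotrypsin-like subunit, and 8.98 and 9.64 times as high as Psmb6, the caspase-like subunit, in the alum and alum + KLH pool. Parts of some of these genes recur in other genes, and the quantification divides reads among like sequences of the transcripts that it includes. Of the 31-base words of Psmb5, 74.0% also occur in another annotated gene, chiefly the processed pseudogene Gm3375, and 9.09% occur on the same strand in a gene of the deposited tables, the microRNA hairpin Mir686, which is annotated within Psmb5 and was listed at 17.7 and 32.2 TPM. Of the words of Psmb7, 33.5% occur in the overlapping gene Nek6 (15.6 and 17.4 TPM) on either strand, and 4.07% on the same strand. The libraries were stranded, but the sources do not say whether the quantification used the strand. How far read division sets the distance between these subunits was not tested.

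The inducible counterparts of the catalytic subunits were low. Psmb8, Psmb9 and Psmb10 replace Psmb5, Psmb6 and Psmb7 in the immunoproteasome of immune cells and of cells exposed to interferon. They measured 4.51 and 4.99 TPM, 4.16 and 3.91 TPM, and 1.92 and 1.79 TPM. As a share of each pair this was 10.9% and 14.3% for Psmb8, 7.76% and 7.59% for Psmb9, and 0.432% and 0.389% for Psmb10. Psmb11, the subunit of the thymus, was at 2.41 and 1.92 TPM.

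In the 19S particle, the 6 ATPases that thread the substrate into the barrel ran from Psmc6 (675.0 and 659.3 TPM) to Psmc4 (66.3 and 56.0 TPM). Psmc1 was at 314.6 and 285.3 TPM, and the remaining Psmc2, Psmc5 and Psmc3 were between 65.4 and 184.9 TPM. The ATPases make up a ring with 1 place for each, and their highest transcript was 10.2 and 11.8 times the lowest.

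The 11 non-ATPase subunits covered a wider range than either ring of the core. Psmd14, the enzyme that cuts ubiquitin from the substrate, was highest at 515.9 and 520.8 TPM, while its partner in the same dimer, Psmd7, was at 171.1 and 170.7 TPM. Psmd12 (362.2 and 358.8 TPM), Psmd6 (351.4 and 352.3 TPM) and the large scaffold subunit Psmd1 (301.4 and 299.3 TPM) followed. The other large scaffold subunit, Psmd2, was at 194.0 and 186.4 TPM. Psmd13 (107.9 and 109.5 TPM), Psmd11 (91.5 and 87.9 TPM), Psmd8 (72.0 and 74.8 TPM) and the ubiquitin receptor Psmd4 (54.8 and 48.5 TPM) were lower. Psmd3, a subunit of the lid, was lowest at 13.4 and 10.96 TPM, so that Psmd14 stood 38.5 and 47.5 times above it.

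Assembly factors and activators had lower transcript levels than the subunits on the whole. The medians were 45.04 and 45.7 TPM for the chaperones of the ATPase ring, 17.0 and 20.0 TPM for the detected chaperones of the alpha ring and 86.5 and 91.6 TPM for the activators, against 183.2 and 184.9 TPM for the 31 subunits. Of the chaperones of the ATPase ring, Psmd5 was at 129.4 and 132.3 TPM, Psmd10 at 45.04 and 45.7 TPM, and Psmd9 at 8.61 and 7.23 TPM. Of the chaperones of the alpha ring, Psmg2 was at 61.0 and 64.2 TPM and its partner Psmg1 at 17.0 and 20.0 TPM. Psmg4 was at 16.7 and 14.7 TPM, and its partner Psmg3 was under the threshold at 1.98 and 0.82 TPM. Among the activators, Psme4, a large nuclear cap, was at 167.7 and 166.4 TPM and Psme3, the nuclear ring, at 108.5 and 107.3 TPM. The subunits of the interferon-inducible ring were at 27.7 and 24.9 TPM (Psme1) and 64.5 and 75.9 TPM (Psme2). Psmf1, an inhibitor of the core in vitro, was at 40.2 and 37.6 TPM.

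Unequal transcript levels within an assembly were also present in other complexes. The SD of log2 TPM was 1.41 and 1.47 over the 31 subunits of the 20S core and 19S particle. It was 1.5 and 1.53 over the 16 detected genes of the vacuolar ATPase, 2.14 and 2.21 over the 41 of mitochondrial complex I, and 1.92 and 2.07 over the 76 cytosolic ribosomal protein genes. The sets are not alike in make-up. The vacuolar ATPase set counts Atp6v0c-ps2 (456.0 and 425.5 TPM), whose symbol is that of a pseudogene. The complex I set was taken by symbol, by a rule that also matches assembly factors, which the 31 proteasome subunits leave out. Over all 42 detected members, with chaperones, activators and the inhibitor, the SD was 1.64 and 1.68. The other sets hold tissue-specific copies, and sequences of ribosomal protein genes recur in many pseudogenes, so the widths are descriptions.

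Among the 20S and 19S subunits the order of levels followed the base composition of the transcript. Spearman's rank correlation between GC content and TPM was -0.929 in the alum pool and -0.933 in the alum + KLH pool across these 31 genes, and -0.724 and -0.735 across all 42 detected members. It was -0.864 and -0.868 within the 14 core subunits and -0.907 and -0.922 within the 17 subunits of the 19S particle. These are correlations across genes of 1 library each. Genes are not independent replicates, and the pools share the library protocol, so the second value is not separate evidence.

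The ends of this order are the genes whose sequences are printed above. Psmc6 had the lowest GC content of the detected members (37.0%) and the highest level, and Psmd3 the highest GC content (58.3%) and the lowest level of the 31 subunits. Psmb7 (48.7%) and Psmb5 (56.6%) stood in the same order. In the class under 45% GC, the median of 10 members was 421.6 and 421.0 TPM, against 44.9 and 45.8 TPM for all genes of that class. In the class of 55% and over, the 5 members (Psmb5, Psmb6, Psmc3, Psmd3 and Psmg4) had a median of 36.9 and 29.97 TPM, against 9.62 and 8.17 TPM for all genes.

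The chaperones were placed differently from the subunits. Psmd10 had 42.3% GC, near that of Psma3 (40.8%), but 45.04 TPM in the alum pool against 609.9 TPM. Psmd9 had 52.7% GC, near that of Psmb4 (52.2%), but 8.61 TPM against 136.2 TPM. With the 11 genes outside the core and the 19S particle added, the correlation was nearer 0, as given above for all 42.

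The same direction was present, less tightly, in the other sets. The rank correlation between GC content and TPM was -0.311 and -0.344 over the 11504 detected genes with a known transcript composition, -0.502 and -0.530 over ribosomal protein genes, -0.632 and -0.654 over 15 vacuolar ATPase genes and -0.460 and -0.476 over complex I genes. Over all members, measures of size followed the level less closely than GC content did. Over the 42 members the rank correlation with TPM was 0.247 and 0.238 for transcript length (0.679 and 0.662 within the 14 core subunits), 0.332 and 0.328 for the number of exons, and 0.225 and 0.223 for the length of the 3′ UTR. For the share of codons ending in G or C it was -0.739 and -0.747. Library preparation and sequencing can depend on GC content too, and its part in this order was not tested.

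**Figure D2:**
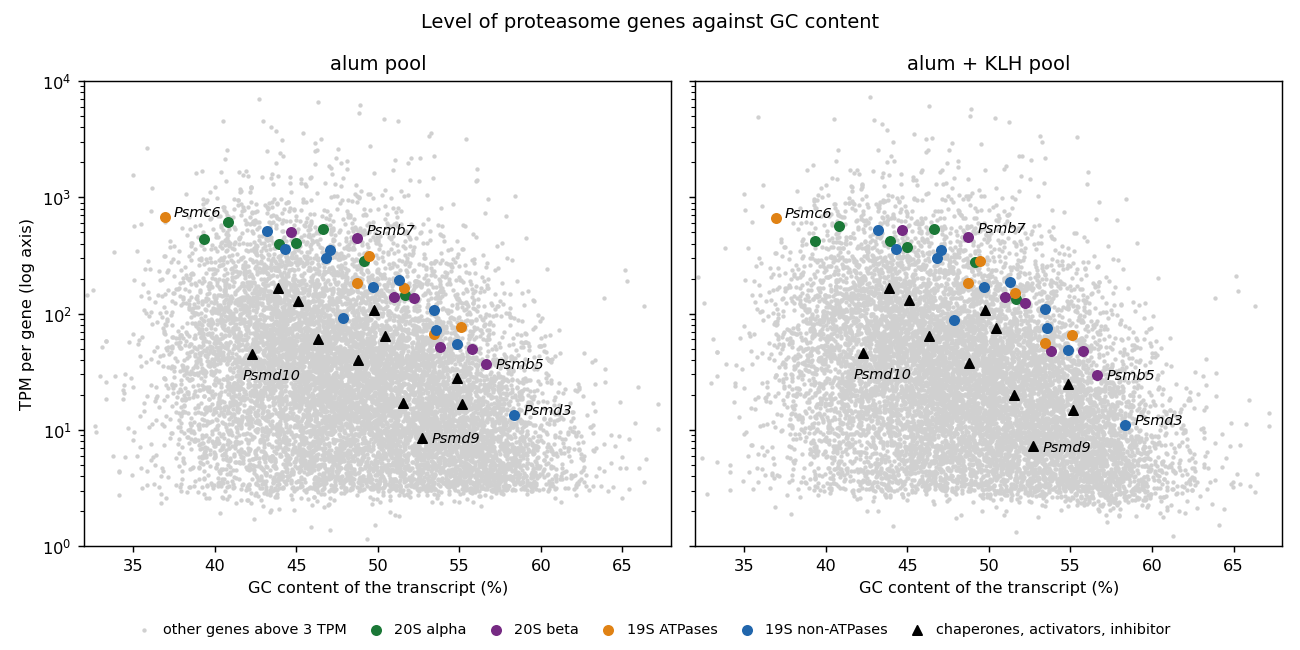
TPM of each gene (log axis) against the GC content of its transcript (%) in the alum pool (left) and the alum + KLH pool (right); grey points are other genes above 3 TPM in at least 1 pool (146 of 11504 lie outside the axes of at least 1 panel), coloured circles are 20S and 19S subunits, and black triangles are chaperones, activators and the inhibitor. The subunits form a descending band in the upper part of the cloud, from Psmc6 at 37.0% GC to Psmd3 at 58.3% GC, and the triangles lie under most circles of similar GC content.

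Between the pools these transcripts differed little. The median log2 ratio of the 42 detected members was -0.03, and that of all 11648 genes was -0.02. Of the members, 29 were lower and 13 higher in the alum + KLH pool, so that 69.0% were lower, where 56.4% of all genes were. This split depends on the scaling: after division by the median ratio of the pools 22 members (52.4%) were lower, against 49.8% of all genes, and relative to Hprt 39 (92.9%) were, against 79.0%. At least 1.2-fold lower were 2 members, Psmb5 and Psmd3 (4.76%), where 8.41% of all genes were. No member was at least 1.2-fold higher, against 3.2% of all genes, and none was 1.5-fold apart in either direction, against 2.56%. The ratio exceeded the neighbour SD in 7 of 42 members (16.7%), near the 17.0% of all genes.

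**Figure D3:**
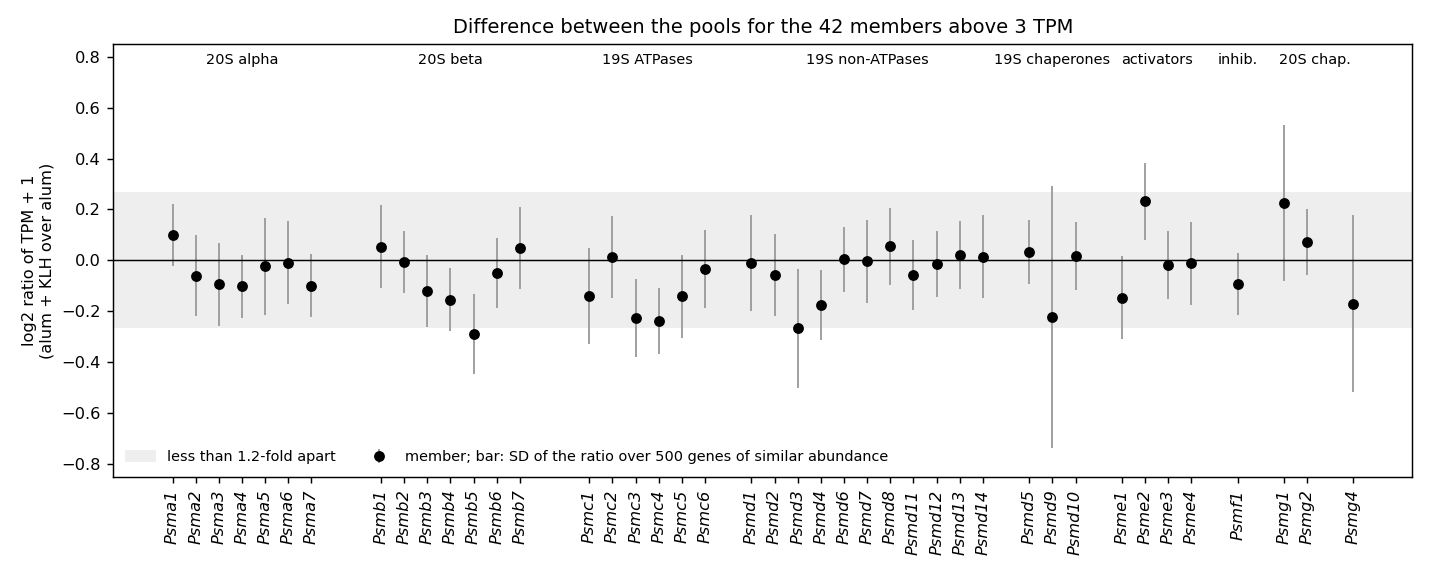
Log2 ratio of TPM + 1 (alum + KLH over alum) for the 42 members above 3 TPM, grouped by role; each bar is 1 neighbour SD on either side, which is scatter between genes and no replicate error, and the grey band marks less than 1.2-fold. Psmb5 (-0.29) and Psmd3 (-0.27) lie under the band, and Psme2 (0.23) and Psmg1 (0.23) are the highest points.

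Psmb5, the chymotrypsin-like subunit, went from 36.9 TPM in the alum pool to 29.97 TPM in the alum + KLH pool, a log2 ratio of -0.29 with a neighbour SD of 0.16. The alum + KLH value was the lower, and Mir686, the hairpin annotated within this gene, was the higher in the same pool at 32.2 against 17.7 TPM. The hairpin is 109 bases long and the Psmb5 transcript 899. As TPM is corrected for length, 1 TPM of the hairpin stands for fewer reads than 1 TPM of Psmb5. The 2 changes in TPM are therefore not equal numbers of reads. All 79 of the 31-base words of this hairpin also occur in the Psmb5 transcript, and the part of such sharing in the value of Psmb5 was not tested. Psmd3 went from 13.4 to 10.96 TPM, a log2 ratio of -0.27 with a neighbour SD of 0.23. It lay just past the 1.2-fold limit, and Psmc4, an ATPase at 66.3 and 56.0 TPM, lay just short of it with a log2 ratio of -0.24 and a neighbour SD of 0.13.

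The other members beyond their neighbour SD were Psmc3 (-0.23, neighbour SD 0.15), Psmd4 (-0.18, 0.14), Psmb4 (-0.15, 0.12) and, in the opposite direction, Psme2 (0.23, 0.15). The alpha subunits lay between -0.10 and 0.10. The catalytic subunits Psmb6 (-0.05) and Psmb7 (0.05) had ratios nearer 0 than Psmb5. Psmg1 and Psmd9, both chaperones, had ratios of 0.23 and -0.22, but with neighbour SDs of 0.31 and 0.51 at their low abundance.

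By group, the median log2 ratio was -0.06 for the alpha subunits, -0.05 for the beta subunits (0.03 after centring on genes of similar GC content), -0.14 for the ATPases and -0.01 for the non-ATPase subunits, the last of which was 0.01 after division by the median ratio of the pools. Lower were 6 of 7 alpha subunits (85.7%), 5 of 7 beta subunits (71.4%), 5 of 6 ATPases (83.3%) and 7 of 11 non-ATPase subunits (63.6%). The share over all genes was 56.4%. After division by the median ratio of the pools these counts were 5, 4, 5 and 4, against 49.8% of all genes. Psmc2, at 183.2 and 184.9 TPM, was the ATPase that was not lower. The ribosomal protein genes, the other large housekeeping set, had a median log2 ratio of -0.19 with 24 of 76 (31.6%) at least 1.2-fold lower and 1 higher. Relative to Hprt 39 (51.3%) were that much lower, where 14.8% of all genes were. After centring on genes of similar GC content their median was -0.12, with 17 (22.4%) that much lower, where 4.14% of all genes were. The vacuolar ATPase genes had -0.01, or 0.01 after division by the median ratio, with none past the limit in either direction. The complex I genes had -0.03, or 0.06 after GC centring. Of these, 6 of 41 (14.6%) were at least 1.2-fold lower and 1 (2.44%) higher, where 8.41% and 3.2% of all genes were.

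The ratio fell with GC content among all genes and among the members. The rank correlation between GC content and the log2 ratio was -0.463 over 11504 genes and -0.512 over the 42 members. Among all genes the median ratio was 0.04 under 45% GC and -0.16 at 55% and over, where 27.7% were at least 1.2-fold lower. The 5 members of the class of 55% and over had a median of -0.23 and ran from -0.29 to -0.05. After each ratio was centred on the median of the 500 genes of closest GC content, an alternative chosen after seeing the data, Psmb5 stood at -0.13 and Psmd3 at -0.08, and neither was 1.2-fold lower. The same step put Psme2 and Psmg1 at 0.27 each, past 1.2-fold higher. What part GC content has in the difference between the pools was not tested.

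**Figure D4:**
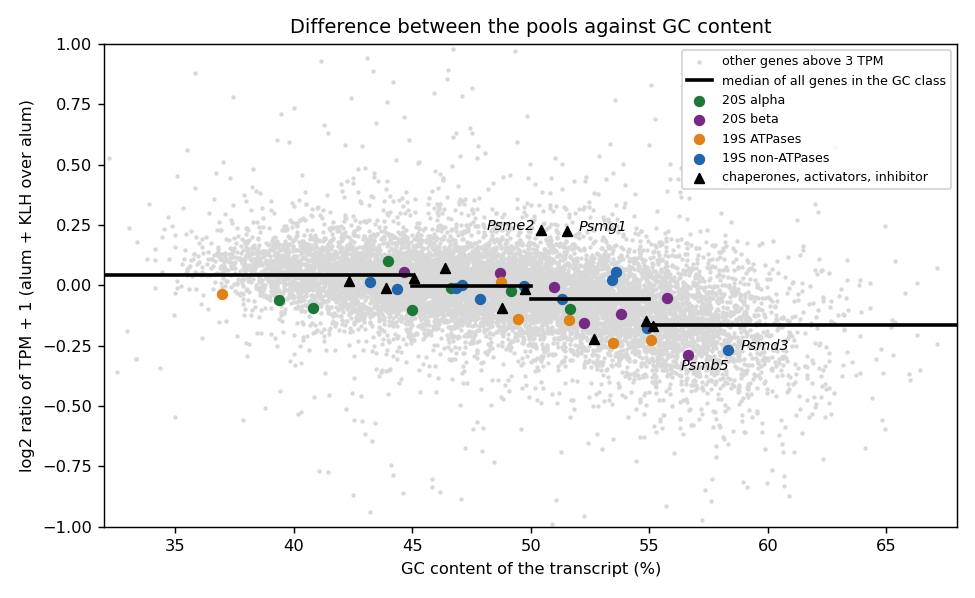
Log2 ratio of TPM + 1 (alum + KLH over alum) against transcript GC content (%); grey points are other genes above 3 TPM in at least 1 pool (197 of 11504 lie outside the axes), black lines are the medians of all genes in 4 GC classes (0.04, 0.00, -0.06 and -0.16 from left to right), and the symbols are the 42 members. The members are lower on the right, with class medians of -0.01, -0.01, -0.11 and -0.23 from left to right, and with Psmb5 and Psmd3 at the lower right and Psme2 and Psmg1 above the other members.

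Psme2, which encodes a subunit of the interferon-inducible ring, was the only detected member higher in the alum + KLH pool by more than its neighbour SD, with 64.5 and 75.9 TPM, while its partner Psme1 went from 27.7 to 24.9 TPM (-0.15, neighbour SD 0.16). The genes are neighbours, at chr14:55578494-55581527 (Psme1) and chr14:55587440-55591101 (Psme2). Of the 31-base words of Psme2, 70.5% also occur in Psme2b, a copy outside the rule that was listed at 1.16 and 3.24 TPM. With both summed the values were 65.7 and 79.2 TPM, a log2 ratio of 0.27. Of the inducible catalytic subunits, Psmb8 had a log2 ratio of 0.12 (neighbour SD 0.23) and Psmb9 one of -0.07 (neighbour SD 0.45). Psmb10 was under 3 TPM in both pools. A list of 7 other interferon-inducible genes was detected in both pools, with a median log2 ratio of -0.19, and 3 of them (Irf1, Isg15 and Tap1) were at least 1.2-fold lower in the alum + KLH pool, against 8.41% of all genes, while none was that much higher. The count was 2 (28.6%) after division by the median ratio of the pools, against 7.14% of all genes. It was 2 (28.6%) after GC centring, against 4.14%, where Tap1 stood at -0.09. Relative to Hprt it was 4 (57.1%), against 14.8%.

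The make-up of transcripts within a gene also differed between the pools. Of the 45 genes, 7 had more than 1 transcript in the deposited tables. For Psmd4 the total was 54.8 and 48.5 TPM, but NM_008951 went from 49.6 to 26.8 TPM and NM_001282017 from 5.29 to 21.7 TPM. The share of NM_001282017 was thus 9.65% in the alum pool and 44.7% in the alum + KLH pool.

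The coding sequences of these transcripts differ by 9 bases, which keep the reading frame and are present only in NM_001282017, which codes over 1140 bases where NM_008951 codes over 1131. The stretch is printed with 30 bases on either side, the bases found only in NM_001282017 in capitals, beginning at coding base 764 counted from the start codon.
Psmd4 (NM_001282017): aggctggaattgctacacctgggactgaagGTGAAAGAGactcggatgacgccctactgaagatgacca
Psmd4 lies at chr3:95032688-95042614. The annotated transcripts also differ in total length, with 1276 bases for NM_001282017 and 1332 for NM_008951. Reads from sequence that they share cannot tell them apart, and the number of reads that could is not known from TPM.

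Psmg4 also differed in composition, with NM_001101430 at 9.20 and 10.2 TPM and NM_001110515 at 7.51 and 4.53 TPM, so that the first made up 55.1% and 69.3% of the gene. Both transcripts of Psme2 were higher in the alum + KLH pool, at 36.1 and 43.5 TPM and at 28.4 and 32.4 TPM. The minor transcript of Psmd10 made up 8.74% and 4.90%, that of Psma7 2.74% and 2.41%, and a noncoding one of Psmd2 1.10% and 0.75%. A further transcript of Psmf1 was listed at 0 in both pools.

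**Figure D5:**
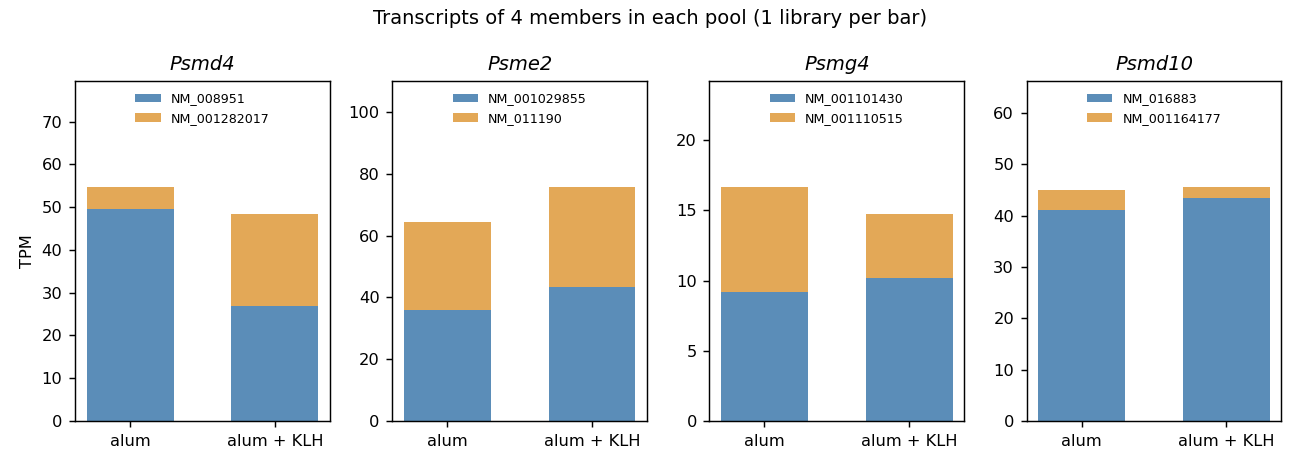
TPM of each RefSeq transcript (stacked, linear axis from 0, with its own scale in each panel) for Psmd4, Psme2, Psmg4 and Psmd10 in the alum and alum + KLH pools, 1 library per bar. The bar of Psmd4 keeps nearly its height (54.8 and 48.5 TPM) while NM_001282017, in orange, goes from 5.29 to 21.7 TPM.

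Genes that act with the proteasome but lie outside the symbol rule were examined as a list of 27 names, of which 25 were found and all 25 were detected in both pools. The names not found, Sem1 and Ecpas, are newer symbols of Shfm1 and AI314180, which are among the 25. The median log2 ratio of the 25 was 0.04, where that of all genes was -0.02. Relative to Hprt these medians were -0.05 and -0.10. At least 1.2-fold lower was 1 of the 25 (4.0%, against 8.41% of all genes), and none was that much higher (against 3.2%). The 1 was Ubb, which encodes a chain of ubiquitin and is known to respond to stress (229.3 and 156.8 TPM, log2 ratio -0.55, neighbour SD 0.16). Rps27a, which encodes ubiquitin fused to a ribosomal protein, was at 706.4 and 756.7 TPM (log2 ratio 0.10, neighbour SD 0.16).

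The assembly factor Pomp, which helps the beta ring to mature, was at 228.9 and 233.2 TPM. The enzymes that trim ubiquitin at the particle were at 463.3 and 489.8 TPM (Usp14) and 155.6 and 160.2 TPM (Uchl5), and the ubiquitin receptor Adrm1 was at 28 and 27.29 TPM. Nfe2l1, the transcription factor known to raise proteasome genes when the proteasome is impaired, was at 197.4 and 180.2 TPM (-0.13, neighbour SD 0.16), and Ddi2, the protease that activates its protein, at 8.37 and 8.22 TPM. Vcp, which extracts ubiquitin-tagged proteins for degradation, was at 494.1 and 487.5 TPM.

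Start site sequences were searched because Nfe2l1 and its relatives bind an antioxidant response element. RefSeq windows on GRCm38.p6, from 250 bases before to 50 after the start, were on hand for 37 of the 45 members. The letters TGACNNNGC, on either strand, were in 6 of them (16.2%), Psmb5, Psmb6, Psmc6, Psmd9, Psmd12 and Psme4, where 14% of the 27025 genes with a window held them. The looser TGANNNNGC, which includes the former, was in 21 (56.8%, against 45%), and CCAAT, the core of the NF-Y element, in 13 (35.1%, against 41.1%). Psmb5 and Psmc6, near opposite ends of the order of levels, both held the first of these. A match of letters is a description and not a binding site.

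The members were scattered over the genome. Of the 45, 8 lay on chromosome 11 and 6 each on chromosomes 2 and 14, and on chromosome 14 Psmb5 was next to Psmb11 (chr14:54625310-54629556), as Psme1 was to Psme2. Of these neighbours Psmb11 was under the threshold in both pools.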

How the data were processed

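DRG neurons of 10 mice per group were pooled by the authors into 1 stranded mRNA library per group. Per the labels and the study's methods, reads were demultiplexed (bcl2fastq), trimmed (cutadapt) and quantified with kallisto on mm10; versions are not given in the sources used here. The authors deposited TPM for 35034 RefSeq transcripts, scaled to a sum of 1000000 per library. TPM keeps no read counts, so the depth is unknown from the files and no interval or floor was computed.

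TPM was summed per gene symbol. Ratios were log2((TPM + 1) alum + KLH / (TPM + 1) alum). Genes above 3 TPM in at least 1 pool formed the background. The neighbour SD used the 500 genes nearest in abundance (mean log2(TPM + 1) of the pools). No replicate check or p-value was possible with 1 library a group. The steps were tested on simulated data. All members are named, and the other genes come from lists, of which a few genes are not reported here. The members and lists were chosen with earlier results of these data known. Transcript features came from GENCODE M21, shared sequence was measured over 31-base words, and positions and start sites came from RefSeq. Python 3.11.15, numpy 2.4.6, pandas 2.3.3 and matplotlib 3.10.9 were used.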

Additional observations from a re-analysis of the deposited data

How the results depend on the processing

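The members at least 1.2-fold lower in the alum + KLH pool numbered 2 as reported (4.76%, against 8.41% of all genes), 1 after division by the median ratio of the pools (2.38% against 7.14%), 5 relative to Hprt (11.9% against 14.8%) and 0 after centring on genes of similar GC content (against 4.14%), an alternative chosen after seeing the data. The 5 relative to Hprt were Psmb5, Psmd3, Psmc3, Psmc4 and Psmd9. Members at least 1.2-fold higher numbered 0 as reported, 1 with a threshold of 1 TPM and 1 with no threshold (Psma8 in both), 1 with the highest transcript of each gene and 2 after GC centring (4.76%, against 4.05% of all genes). The lower count was 3 under the same thresholds, with Psmg3 added, and 3 with the highest transcript. For these thresholds and for the highest transcript the share over all genes was not computed, so these counts have no background beside them. Psmd4 was at -0.86 with its highest transcript in place of the sum. The median log2 ratio of the members ran from -0.11 relative to Hprt, where that of all genes was -0.10, to -0.01 after division by the median ratio. Of 294 values of single members under 7 of the settings, 290 stayed within the neighbour SD of the reported value or, for Psmb5 and Psmd3, past the 1.2-fold limit. Much of this was fixed in advance, so the count is no measure of robustness. Division by the median ratio and scaling to Hprt move all members by nearly the same amount, less than any neighbour SD. Members with 1 transcript (38 of 45) cannot change with the highest transcript. Some of the 290 changed sign. Psmg4 went from -0.17 to 0.14 with its highest transcript (neighbour SD 0.35), and Psmb7 from 0.05 to -0.03 relative to Hprt. The other 4 kept their direction: the value of Psmd4 given above, and Psmd3 after division by the median ratio (-0.25) and Psmb5 (-0.13) and Psmd3 (-0.08) after GC centring, which were no longer 1.2-fold lower. For the values that differed, the cause was not tested. No paired analysis was possible because each group is 1 library, and no replicate could be left out for the same reason. The lack of read counts limits what can be said of Psma8, Psmb11 and Psmg3.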

Other observations

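A gene close in name to the set but outside its rule, Psmc3ip, which encodes a meiotic recombination factor and no proteasome subunit, was at 1.67 TPM in the alum pool and 1.38 TPM in the alum + KLH pool. Shfm1 and AI314180 belong to the list of genes that act with the proteasome. Shfm1, an older symbol of the small 19S subunit Sem1, was at 280.0 and 311.8 TPM. AI314180, an older symbol of the proteasome scaffold Ecpas, was at 208.5 and 204.4 TPM.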
